A study of Fundulus heteroclitus with 20 samples.

Results

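Homeobox genes encode transcription factors that bind DNA through a shared folded domain, and the paired box and POU genes are related families, each named for a DNA-binding domain of its own. During development they divide the neural tube into regions, and many stay active in the adult neurons of the region they helped to form, so that a bulk brain sample carries a record of which regions it holds. Their levels were examined here in the midbrain and diencephalon of the mummichog (Fundulus heteroclitus), a killifish. Members were taken from the deposited count table as every gene whose description holds "homeobox", "paired box", "POU domain" or "POU class", leaving out the 6 zinc finger E-box proteins. This gave 151 of the 13679 genes of the table, of which 150 are annotated as protein-coding and 1 as a pseudogene. A count was present for 145 of them in at least 1 library, and 77 passed the filter on low counts and entered the tests.

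The study lesioned the brains of 10 adult fish with a needle pushed through the optic tectum and tegmentum of the midbrain into the hypothalamus beneath, under 2-phenoxyethanol anaesthesia, and collected the tissue at 1 h. Both hemispheres of each fish were sequenced, which gave 10 lesioned and 10 contralateral intact libraries, and every fish therefore served as its own control. No unoperated fish is among the samples, sex is not given, and the intact hemisphere belongs to an animal that was also anaesthetised and lesioned. The labels name every intact hemisphere as the left and every lesioned one as the right, while the study's methods describe lesions on either side; as labelled, side of the brain and lesion cannot be told apart. Libraries held 9213580 to 11070103 counts. The members together took 0.263% to 0.299% of them, and no library stood apart in that share.

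Each member was placed in 1 of 13 groups by the region or tissue in which textbooks place its main site of expression in vertebrates, mostly from zebrafish and mouse. No region was sampled on its own, so a group name says where the gene is known from and not where it was read in these fish. The table listed 11 hypothalamic, 15 forebrain, 3 thalamic, 13 midbrain, 4 cerebellar and broader, and 36 hindbrain and spinal members. It further listed 4 retinal or pineal, 3 pituitary, 9 glial and progenitor, 5 POU class 3 and 6, 15 broadly expressed, 14 non-neural and 19 other members. The filter kept 12 of the 13 midbrain members, all 5 POU class 3 and 6 members, 14 of the 15 broad ones and 8 of the 11 hypothalamic ones. It kept 3 of the 36 hindbrain and spinal members and none of the 3 pituitary members.

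A midbrain gene and a thalamic gene of the labelled tissue were read in every library. Not every gene of that tissue was, since the hypothalamic gene bsx had no count in the lesioned hemispheres of fish 2 and fish 4. The midbrain gene engrailed 2 (en2) ranged from 28.5 to 70.2 CPM (counts scaled to a common library size, with TMM, a factor that evens out library composition), and the thalamic gene lhx9 from 146 to 249 CPM. Levels are compared between libraries only, since transcript lengths were not at hand to compare one gene with another.

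Some libraries stood apart before any comparison between the sides. For each group, a level was computed in each library as the mean over its tested members of the log2 CPM minus that member's mean over the 20 libraries. The hypothalamic level was -2.53 in the intact hemisphere of fish 3 and -1.76 in the lesioned hemisphere of fish 2, against at most 1.13, in the intact hemisphere of fish 4. Low values of -1.05, -0.94 and -0.92 followed in the lesioned hemisphere of fish 4, the intact hemisphere of fish 9 and the intact hemisphere of fish 7. The totals of the 2 lowest libraries, 10109789 and 10547627 counts, lay inside the range of the others. The spreads, the called members and the correlations of levels are therefore given with and without fish 2 and fish 3.

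The hypothalamus sits at the base of the diencephalon and holds the neuroendocrine and feeding centres. In its 8 tested members the hemispheres of one fish were, by the median, about as alike as hemispheres of different fish. The median intraclass correlation, explained below, was 0.03. nkx2-1, which specifies the ventral hypothalamus, was lowest in the intact hemisphere of fish 3 at 0.60 CPM and highest in the intact hemisphere of fish 4 at 13.7 CPM. Its intact libraries had a median of 7.97 CPM, and its lesioned libraries ranged from 1.98 to 12.8 CPM with a median of 8.44 CPM. In fish 9 the intact hemisphere read 1.20 CPM and the lesioned one 12.8 CPM, while in fish 2 the order was turned, with 13.5 CPM intact and 1.98 CPM lesioned. The sides overlapped throughout, and low readings occurred on both.

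bsx, which in mice acts in the feeding neurons of the hypothalamus, had the widest gaps between hemispheres. No count was found in the lesioned hemispheres of fish 2 and fish 4, where a count of 0 allows up to 3 counts at this depth, against 138 counts in the intact hemisphere of fish 2. Intact libraries ranged from 0.30 to 13.9 CPM with a median of 3.59 CPM, and the other lesioned libraries reached 6.81 CPM. vax1 and vax2, which act in the ventral forebrain and optic stalk, had hemisphere differences of the same sign in 8 of the 10 fish, the exceptions being fish 1 (log2 ratios of 0.22 and -0.92) and fish 6 (-0.36 and 0.14). vax2 read 8.74 CPM in the intact hemisphere of fish 2 and 0.09 CPM in the lesioned one, and vax1 also read lower on the lesioned side there, from 16.3 CPM on the intact one. In the intact hemisphere of fish 3 vax1 was at 0.70 CPM against 6.01 CPM on the lesioned side.

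otp, which directs the formation of neuroendocrine neurons, was the least uneven of the 8. Its intact libraries lay between 4.59 and 18.9 CPM with a median of 9.00 CPM, and its lesioned libraries between 2.64 and 13.1 CPM with a median of 8.39 CPM. The remaining members are an HMX3-B-like gene (LOC105926435) of a family known from the hypothalamus and inner ear, and 2 nkx2.4 copies related to nkx2-1, LOC105934384 and the annotated pseudogene LOC105925923. The HMX3-B-like gene ranged from 0.10 CPM in the intact hemisphere of fish 3 to 11.6 CPM in the intact hemisphere of fish 4. Both nkx2.4 copies also had their lowest value in the intact hemisphere of fish 3, at 0.30 and 0.60 CPM, and reads shared between the copies would make their separate values uncertain.

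**Figure D1:**
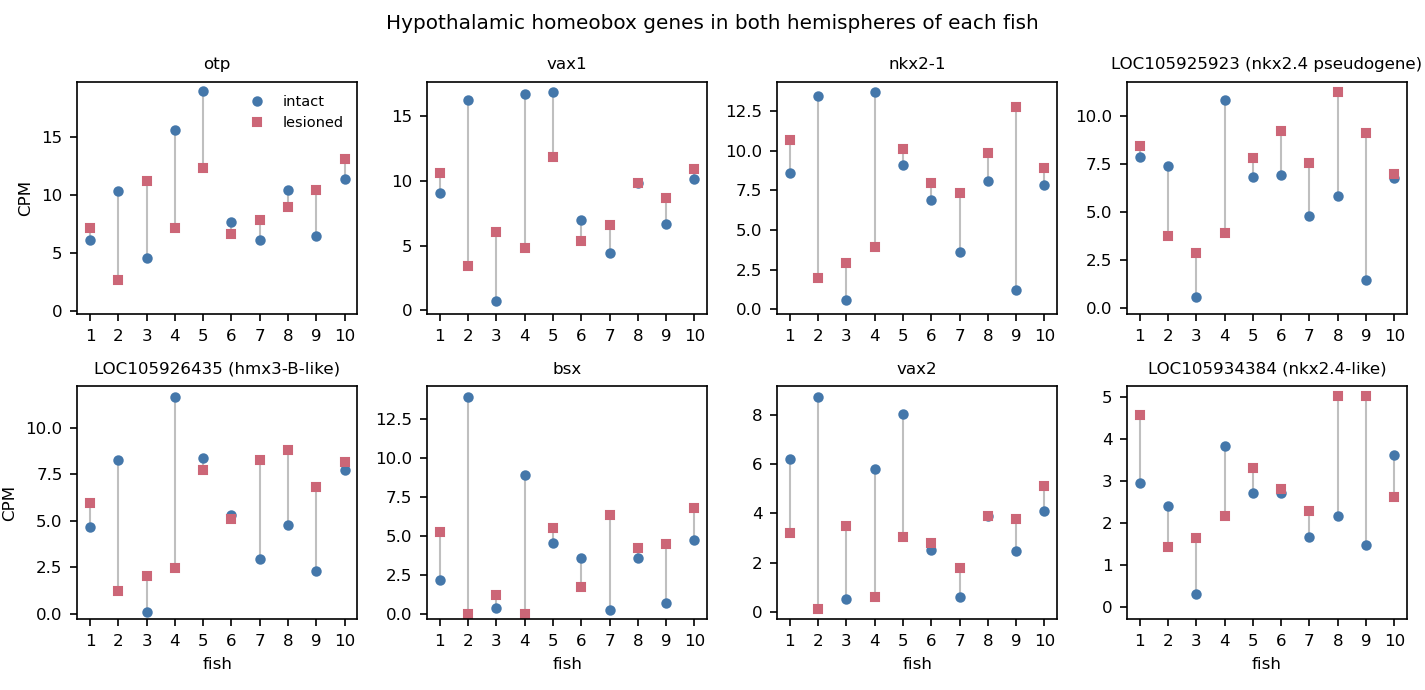
CPM of the 8 tested hypothalamic members in the intact (blue circles) and lesioned (red squares) hemisphere of each of the 10 fish, with a line joining the hemispheres of one fish; each panel has its own axis from near 0. Fish 2 and fish 4 have the lesioned hemisphere far below the intact one for most genes, fish 3 and fish 9 the reverse, and the pairs of fish 6 and fish 10 lie close together.

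The members all agreed in direction in 5 of the 10 fish. In the intact hemisphere of fish 3, 8 of 8 were below their own mean, 7 of them by more than 1 on the log2 scale. In the lesioned hemisphere of fish 2, 8 of 8 were below, 6 by more than 1. The median difference of lesioned minus intact over the 8 genes was -2.38 in fish 2 and -1.76 in fish 4, and 1.97 in fish 3, 1.57 in fish 9 and 0.80 in fish 7. All 8 differences had the same sign in each of these 5 fish. The median lay between -0.01 and 0.26 in the other 5 fish. Of these, fish 1, fish 8 and fish 10 each had 1 of the 8 members below 0. In fish 5 and fish 6 the members split, 4 below and 4 above 0. The level was higher in the lesioned hemisphere in 6 of 10 fish, and its means over the sides were -0.02 intact and 0.02 lesioned. In bulk tissue, fewer cells of a type and less RNA per cell cannot be told apart.

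Hypothalamic genes outside the homeobox families were low in part of the same libraries. Of 11 listed peptide genes of the hypothalamus 9 were tested, and their level ran from -1.001 to 0.89 in intact and from -1.70 to 0.64 in lesioned libraries. Its lowest values fell in the lesioned hemispheres of fish 2 (-1.70) and fish 4 (-1.34) and the intact hemisphere of fish 7 (-1.001). The neuropeptide gene gal had 2 counts in the lesioned hemisphere of fish 2 and 124 in the intact one. A pro-opiomelanocortin-like gene (LOC105916446), which encodes a hormone precursor, had 0 and 62 counts there, and 1 count in the intact hemisphere of fish 3. Across the 10 fish the hemisphere differences of the homeobox and peptide levels had a Pearson r of 0.94 and a Spearman rho of 0.88, with r = 0.76 without the 2 farthest fish, which were fish 2 and fish 4, and r = 0.92 without fish 2 and fish 3. Both levels come from the same libraries with the same scaling, and r is a description. Not every peptide gene took part. npy, the gene of an appetite-stimulating peptide, was highest in the intact hemisphere of fish 3 with 1147 counts, and its log2 ratios of lesioned over intact were 0.19 in fish 2, 0.06 in fish 4, -0.44 in fish 3 and -0.44 in fish 9. Others took part in some fish only. hcrt, which encodes the wake-promoting orexins, had ratios of -1.55 in fish 2 and -1.33 in fish 4, but -1.15 in fish 3. The other pro-opiomelanocortin-like copy (LOC105929480) had a ratio of 1.07 in fish 3, but 0.13 in fish 2. In the intact hemisphere of fish 9, where the homeobox level was -0.94, the peptide level was -0.02. The part of these genes in the homeobox differences was not tested.

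**Figure D2:**
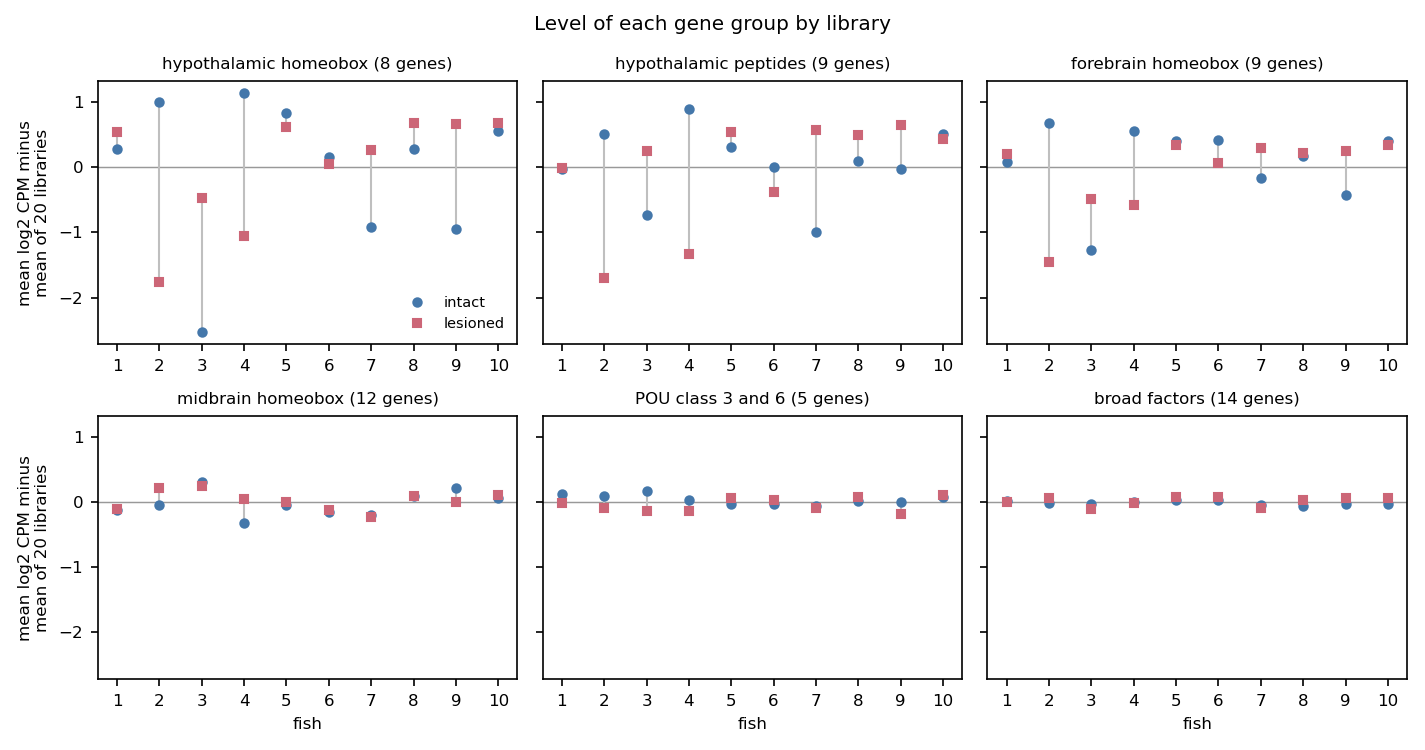
Mean log2 CPM relative to each gene's mean over the 20 libraries, by fish, for 5 groups of homeobox and POU genes and for 9 non-homeobox hypothalamic peptide genes; blue circles are intact and red squares lesioned hemispheres, joined within a fish. The hypothalamic homeobox level spans -2.53 to 1.13 and is low with the peptides in the lesioned hemispheres of fish 2 and fish 4 and the intact hemispheres of fish 3 and fish 7, but not in the intact hemisphere of fish 9 (peptide level -0.02), while the midbrain level stays between -0.32 and 0.30.

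Most tested forebrain members belong to the GABAergic dlx pathway. There gsx genes act in progenitors, dlx genes drive inhibitory neurons and arx acts downstream of dlx. The group also holds emx2 and dlx3, which are taken up below. dlx1, dlx2, dlx5, dlx6 and arx were lowest or close to lowest in the lesioned hemisphere of fish 2 and low again in the intact hemisphere of fish 3. dlx1 ranged from 5.58 to 28.1 CPM in intact libraries (median 15.9) and from 2.64 to 17.9 CPM in lesioned ones (median 14.8). Its lowest value was in the lesioned hemisphere of fish 2 and its highest in the intact hemisphere of the same fish. dlx1 and dlx2, and likewise dlx5 and dlx6, are neighbours in the RefSeq gene order of this species (assembly MU-UCD_Fhet_4.1). arx had 2 counts in the lesioned hemisphere of fish 2 and 78 in the intact one. gsx1 had its lowest value elsewhere, at 1.89 CPM in the intact hemisphere of fish 3, with 9.59 to 36.4 CPM in the other 19 libraries. gsx2 differed little between the hemispheres of these fish, with log2 ratios of -0.08 in fish 2, 0.21 in fish 3 and 0.075 in fish 4. Its lowest count, 14, was also in the intact hemisphere of fish 3.

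emx2, a gene of the dorsal telencephalon in mammals, did not share these lows. It lay between 30.7 and 54.3 CPM and was highest in the lesioned hemisphere of fish 2 (54.3) and the intact hemisphere of fish 3 (52.7), the libraries lowest in dlx genes. The level of the 9 forebrain members was -1.46 and -1.27 in those 2 libraries, respectively. Its hemisphere differences followed the hypothalamic ones over the 10 fish with r = 0.97 and rho = 0.95, with r = 0.96 without the 2 farthest fish and 0.98 without fish 2 and fish 3, again as a description of levels that share a library. Among the 6 untested forebrain members, counts of an Lhx8-like gene (LOC105940321) summed to 6, and an Emx1-like gene (LOC105932834) reached 170.

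The midbrain group holds genes of the tectum, the tegmentum and the boundary to the hindbrain. It was far more even, with levels between -0.32 and 0.30, and none of its 12 members had a spread within fish over 0.5 on the log2 scale. pou4f2, known from retinal ganglion cells and the tectum, ranged from 122 to 242 CPM (median 175) in intact and from 137 to 197 CPM (median 163) in lesioned libraries. Its highest value was in the intact hemisphere of fish 3. An otx1 copy (LOC105933319), which together with otx2 patterns forebrain and midbrain, stayed between 36.4 and 67.8 CPM. The midbrain level was highest in the intact hemisphere of fish 3 (0.30), where the hypothalamic level was lowest. It was lowest in the intact hemisphere of fish 4 (-0.32), where all 12 members were below their own mean and where the hypothalamic level was highest. Over the 10 fish the hemisphere differences of the 2 levels had r = -0.92 and rho = -0.94, with r = -0.76 without the 2 farthest fish and -0.97 without fish 2 and fish 3. For the fish means of the 2 levels r was -0.42 and rho -0.10, with r = 0.23 without the 2 farthest fish. Without fish 2 and fish 3 this r was 0.45. CPM values of one library share one total, so the 2 levels are not independent.

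en1 and en2, which define the midbrain-hindbrain boundary and later mark tectal and cerebellar tissue, were read at different levels in different fish. en2 read 28.5 and 37.9 CPM in the intact and lesioned hemispheres of fish 6 and 33.2 and 32.0 CPM in those of fish 7. In fish 3 it read 70.2 and 66.8 CPM, and in fish 10 61.7 and 60.8 CPM. Of its variance 0.72 lay between fish by the intraclass correlation, which is 1 where both hemispheres of each fish agree fully and 0 or below where they are no more alike than hemispheres of different fish. en1 had an intraclass correlation of 0.34 and ranged from 8.75 to 27.5 CPM. Pax-2a-like (LOC105918632), engrailed-1-B-like (LOC105915581) and pax8, further genes of the boundary region, had values of 0.61, 0.70 and 0.59.

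The thalamic members lhx9 and lhx2 were read in every library. lhx9 had a median of 199 CPM in intact and 184 CPM in lesioned libraries, and lhx2 of 26.2 and 24.0 CPM. Their level ranged from -0.32 to 0.25 and did not share the low hypothalamic libraries. The habenular gene gng8, which is not a homeobox gene, had 0 counts in the lesioned hemisphere of fish 2, 4 in the intact hemisphere of fish 10 and 5 in the intact hemisphere of fish 3, against 24 to 279 elsewhere. The hypothalamic level of the intact hemisphere of fish 10 was 0.55, so that the lows of gng8 were shared with it only in part. The other listed thalamic and habenular markers, the KCTD12-like genes LOC105916353 and LOC105923683, were far steadier. They ranged from 310 to 556 and from 1193 to 2299 counts, with SDs within fish of 0.18 and 0.10 beside 2.42 for gng8.

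Among the genes of the cerebellum and neighbouring regions, pax6, a gene of granule cells and of forebrain neurons, was at 1.42 CPM in the lesioned hemisphere of fish 2 and at 21.3 CPM in the intact hemisphere of fish 5. Its medians were 9.82 CPM intact and 7.63 CPM lesioned. A Pax-6-like copy (LOC105934789) was also lowest in the lesioned hemisphere of fish 2, at 0.47 CPM, while the other copy of the same description (LOC105926657) stayed between 2.17 and 4.77 CPM. lhx5 ranged only from 26.2 to 38.1 CPM. The dopaminergic marker th, the rate-limiting enzyme of catecholamine synthesis, had 26 counts in the lesioned hemisphere of fish 2 and 116 to 302 in the other 19 libraries. Of 11 listed cerebellar markers 9 were tested, and their level ran from -1.48 to 0.82 in intact and from -0.85 to 0.68 in lesioned libraries. One of them, fat2, a cadherin of granule cells, had 21 counts in the intact hemisphere of fish 3 and 105 in the lesioned hemisphere of fish 2, against up to 2453. The part of these markers in the pax6 values was not tested.

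Hox genes set identity along the hindbrain and spinal cord and are silent further forward. All 31 listed Hox genes together had 1148 counts in the 20 libraries, 4 had none, and 1, hoxa2, which specifies the most anterior hindbrain segments, passed the filter. The sum was 256 counts in the intact hemisphere of fish 5 and 26 to 93 (median 45) in the other 19 libraries. hoxd3 had 59 of its 66 counts in that library, a Hox-B3a gene (LOC105919933) 53 of 95, and hoxa2 63 of 242. Of the 7 Hox genes with at least 50 counts, 5 were highest there. uncx, which is known from several parts of the nervous system, and an unc-4 homolog (LOC105939442) were steadier, at 10.3 to 18.3 and 6.81 to 16.4 CPM.

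Genes of the retina, the pineal organ, the pituitary and some other tissues were also found, several of them mostly in single libraries. crx, which drives photoreceptor and pineal genes, had 39 of its 68 counts in the intact hemisphere of fish 2. The same library held 434 counts of rho (16 to 74 in the others), 414 of gnat1 (0 to 44) and 272 of asmt (6 to 42), genes of phototransduction and melatonin synthesis. A rod phosphodiesterase subunit (LOC105926479) was also highest there, at 564 counts against at most 333 elsewhere. Other listed genes of this kind were not raised in it. aanat had 56 counts and pde6h 75, within 37 to 73 and 66 to 132 over all libraries, and another rhodopsin gene (LOC105926116) had 1. pou1f1, the activator of pituitary hormone genes, had 70 counts in all, with the 3 highest of 13, 9 and 9 in the intact hemispheres of fish 2 and fish 6 and the lesioned hemisphere of fish 10. Those 3 libraries also had the highest counts of the pituitary hormone gene prl, at 263, 228 and 384, against at most 50 elsewhere. The other listed pituitary hormone genes did not follow prl in all of them. Somatotropin (LOC105932808) had 2, 114 and 9 counts there, and 30 in the intact hemisphere of fish 5. A somatolactin-like gene (LOC105929080) had 0, 10 and 0, and gonadotropin subunit beta-2 (LOC105933358) 0, 2 and 1. Single libraries also stood out for dlx3, which is placed in the forebrain group, and for pax1. dlx3 reached 84 counts in the intact hemisphere of fish 6 against at most 44 elsewhere, and all 27 counts of pax1 were in the intact hemisphere of fish 7. Of these members only dlx3 passed the filter, and it is part of the forebrain values given above and below. No comparison of the sides rests on the others.

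The other members that did not pass the filter were scarce throughout. In the hypothalamic group these were an Hmx2-like gene (LOC105934619) with 100 counts in all, a Six6-like gene (LOC105933590) with 89 and an Rx2-like gene (LOC105931041) with none. A Pax-5-like gene (LOC105932679) of the midbrain-hindbrain boundary had 62 counts, and isl2, a gene of motor and other projection neurons, had 23. Of the 14 non-neural members, genes of mesenchyme, blood vessels and gut, 11 were not tested, with 0 to 195 counts each. Of the 3 that were, hhex, a gene of endothelium and blood progenitors, ranged from 1.66 to 4.11 CPM.

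Among the glial and progenitor members, prox1, which acts in neural progenitors and some neurons, ranged from 10.4 CPM in the intact hemisphere of fish 3 to 55.7 CPM in the lesioned hemisphere of fish 6. nkx2-2, which acts in oligodendrocyte precursors and in the ventral brain, ranged from 14.6 to 37.3 CPM. nkx6-2, a gene of oligodendrocytes, followed the fish, with 29.8 and 28.9 CPM in the hemispheres of fish 3 and 13.5 and 18.5 CPM in those of fish 2, and an intraclass correlation of 0.76.

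The highest agreement between hemispheres was that of a Mohawk-like gene (LOC105920936), a relative of a regulator of tendon cells in mammals, with an intraclass correlation of 0.93. Its CPM was 23.6 and 21.8 in fish 4, 5.03 and 3.63 in fish 6, and 16.1 and 16.2 in fish 7, intact first. It is 1 of 5 members described as Mohawk-like, so reads may be divided between copies. The copy next to it in the RefSeq gene order (LOC105917908) ranged only from 6.80 to 11.6 CPM, with an intraclass correlation of -0.03. dbx2, which patterns interneuron progenitors of the spinal cord in mice, had 0.76, as did nkx6-2. The lowest values were those of cux2 (-0.58), gsc (-0.55) and arx (-0.54). For cux2, a gene of upper cortical layers in mammals, the range was only 80.7 to 107 CPM, with an SD of 0.054 between fish means and 0.149 within fish on the log2 scale.

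The POU class 3 genes act in neural progenitors and neurons, and pou3f2 is required in mice for the neuroendocrine neurons of the hypothalamus. Together with the class 6 genes and the broadly expressed members, they had the smallest spreads. The 5 POU members had a median SD of 0.10 between fish means and 0.08 within fish. The 14 broad members, among them the TALE factor meis2, a partner of other homeobox proteins, had 0.14 and 0.11. meis2 ranged from 228 to 392 CPM, highest in the intact hemisphere of fish 3. adnp, a chromatin factor among the broad members, ranged from 101 to 124 CPM. tshz1, a zinc finger homeobox gene placed in the group of other members, ranged from 171 to 206 CPM.

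Over all 77 tested members, the median SD on the log2 scale was 0.27 between fish means and 0.25 within fish, and the median intraclass correlation was 0.22. All 10513 genes tested had medians of 0.17, 0.12 and 0.56. The members were also counted less, with a median of 9.52 CPM against 33.2 CPM for all genes. At a mean of 1 to 10 CPM, the 39 members had 0.43 between fish and 0.58 within fish, beside 0.37 and 0.28 for all 2542 genes of that range. Counting alone would give SDs of 0.24 for these members and 0.22 for all genes of that range, as medians. These are for 1 library, and a fish mean of both hemispheres would have less. At 10 CPM or more, the 38 members had 0.15 and 0.17, beside 0.14 and 0.10 for all genes from 10 to 300 CPM. An intraclass correlation below 0 was found in 25 of 77 members (32.5%) and in 9.69% of all genes. A spread within fish over 0.5 was found in 24 members (31.2%) and in 3.96% of all genes. At 1 to 10 CPM these shares were 35.9% and 56.4% of members, beside 12.55% and 12.3% of all genes of that range. At 10 CPM or more they were 28.95% and 5.26% of members, beside 8.93% and 1.26% of all genes from 10 to 300 CPM. These are counts, and no test was made of the members as a set.

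Of the 24 members with a spread within fish over 0.5, 8 were hypothalamic (8 of 8 tested) and 7 were forebrain members (7 of 9). The hypothalamic medians were 0.75 between fish and 1.06 within fish, with an intraclass correlation of 0.03, and the forebrain medians were 0.43, 0.85 and -0.26. The midbrain medians were 0.27, 0.25 and 0.32. Without fish 2 and fish 3 the hypothalamic medians were 0.43 between and 0.79 within fish and the forebrain ones 0.25 and 0.53. The hypothalamic median intraclass correlation was then -0.41. A fish mean averages both hemispheres, so its SD is expected to be below the SD within fish even where fish do not differ. The SDs are therefore not compared directly. Libraries of the same fish deviated together over all genes in all 10 fish, with correlations of 0.39 to 0.73. Over the tested members alone the same correlation was negative in fish 2 (-0.62), fish 4 (-0.51), fish 9 (-0.27) and fish 7 (-0.14) and positive in the other 6. Fish 3, which also had a large hypothalamic difference, was among the positive ones at 0.48. Between hemispheres of different fish the correlation over the members ran from -0.67 to 0.73. All 10 same-fish values lay inside that range.

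**Figure D3:**
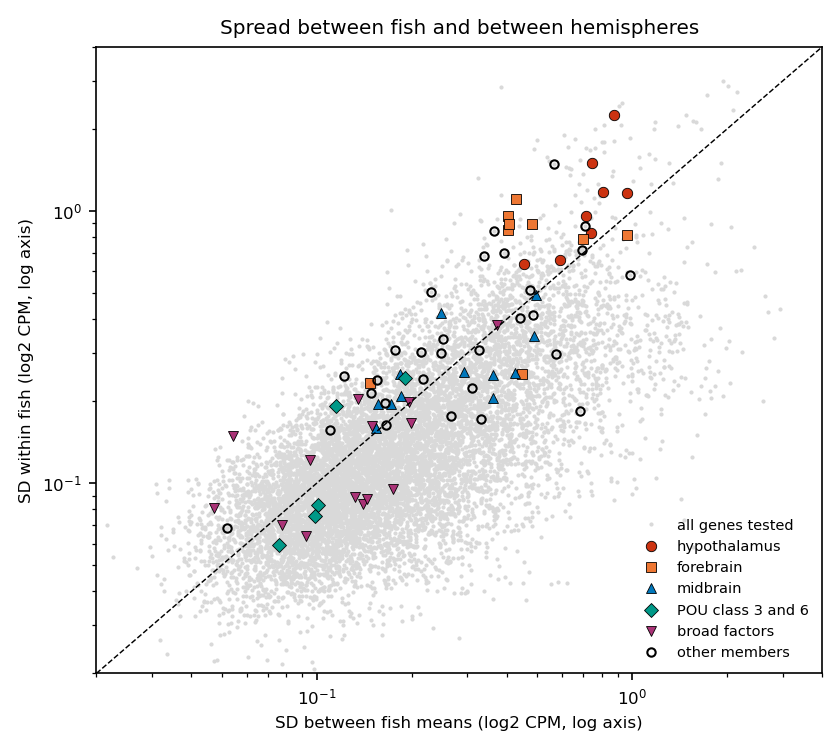
SD between the means of the 10 fish (x axis) and SD within fish (y axis), both of log2 CPM on log axes, for all 10513 genes tested (grey) and the 77 tested members by group; the dashed line marks equal values. The hypothalamic members and most forebrain members lie at the upper right above the line, and the POU and broad members at the lower left. Most of the grey cloud lies below the line. A fish mean averages both hemispheres, so genes that do not differ between fish would also tend to lie above the line.

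The comparison of lesioned with intact hemispheres asked which members changed within 1 h of the injury. edgeR's quasi-likelihood test with fish as a block called 1 member higher and 1 lower at an adjusted p of 0.1 or less, the study's stricter cutoff. Over all genes tested 1.28% were called higher and 0.0951% lower. The member called higher was otx2, which specifies forebrain and midbrain, and the member called lower was pou3f2. At the study's permissive cutoff of 0.4, 5 members were higher and 2 lower, against 6.12% and 3.97% of all genes, and 7 of 77 (9.09%) had an unadjusted p under 0.05, against 11.7%. The member shares in the higher direction, 1.30% and 6.49%, were near those of all genes. The median log2 fold change was -0.04 over the members and -0.01 over all genes, with 31 members above 0 and 46 below. In 0 of the 77 members did the 10 lesioned libraries lie wholly apart from the 10 intact ones, which was so for 0.0666% of all genes tested. In the same fit the immediate early genes fosl1, egr1 and nr4a1, which neurons switch on within minutes of stimulation, rose by 1.82, 0.81 and 2.50 on the log2 scale.

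otx2 ranged from 85.8 to 137 CPM with a median of 105 in intact libraries and from 110 to 163 CPM with a median of 131 in lesioned ones. The means were 108 ± 16.2 and 131 ± 15.1 CPM (SD, n = 10 each), so that the sides overlapped. It was higher in the lesioned hemisphere in 8 of 10 fish, with a log2 fold change of 0.28 (SE 0.06, adjusted p = 0.0476 by edgeR's quasi-likelihood test). The two-sided exact sign-flip permutation test over the 10 fish gave p = 0.00781, where 0.00195 is the smallest it can give. The call was lost without fish 1, fish 4 or fish 10 (adjusted p = 0.126, 0.128 and 0.128). It was kept without fish 2 and fish 3 (0.0416).

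The otx2 difference also went with the hypothalamic one, in the opposite direction. Its log2 ratio was largest in fish 2 (0.63) and fish 4 (0.55), whose lesioned hemispheres were low in hypothalamic members by 2.75 and 2.18. It was -0.02 and -0.04 in fish 3 and fish 9, whose intact hemispheres were the low ones. Fish 7 went against this order, with a ratio of 0.39 although its intact hemisphere was also the low one, by 1.175. In fish 8, with a hypothalamic difference of 0.40, the ratio was 0.12. In the fish with hypothalamic differences nearest to 0, namely fish 6, fish 10, fish 5 and fish 1, the ratio was 0.15, 0.38, 0.31 and 0.35. Over the 10 fish r was -0.84 and rho -0.71, and r was -0.61 without the 2 farthest fish and -0.68 without fish 2 and fish 3, as a description of values that share libraries. The part of this in the otx2 call was not tested.

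pou3f2 ranged from 36.5 to 43.7 CPM with a median of 38.9 in intact libraries and from 30.4 to 39.7 CPM with a median of 36.0 in lesioned ones. The means were 39.4 ± 2.26 and 35.5 ± 3.34 CPM (SD, n = 10 each), and the sides overlapped. It was lower in the lesioned hemisphere in 9 of 10 fish, and in fish 9 it was nearly equal. Its log2 fold change was -0.15 (SE 0.04, adjusted p = 0.0853 by edgeR's quasi-likelihood test), and the two-sided exact sign-flip permutation test gave p = 0.00391. The call was lost without any 1 of fish 1, 2, 3, 4, 7, 8 and 10 (adjusted p = 0.12 to 0.22) and without fish 2 and fish 3 together (0.206). Its ratio followed the hypothalamic difference with r = 0.32, with r = -0.23 without the 2 farthest fish and with r = 0.37 without fish 2 and fish 3.

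**Figure D4:**
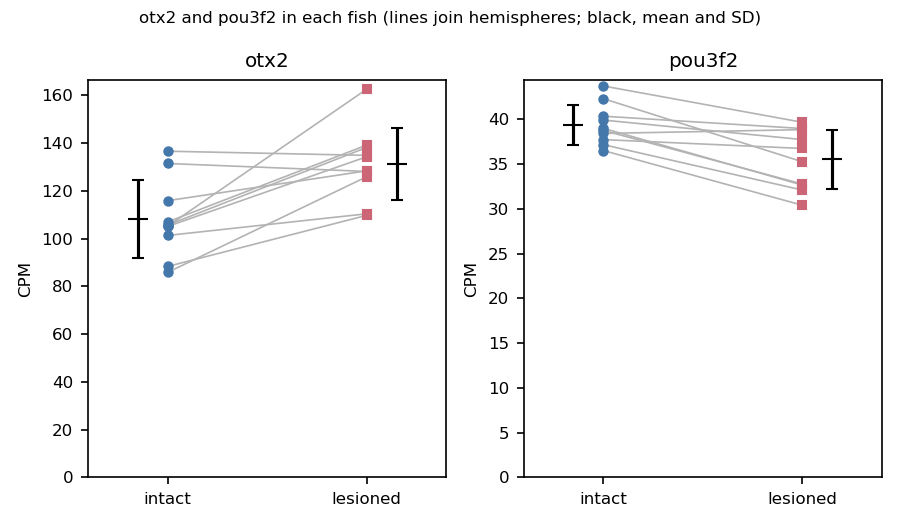
CPM of otx2 and pou3f2 in the 10 intact and 10 lesioned hemispheres, with a line joining the hemispheres of each fish and the mean and SD of each side in black. Most otx2 lines rise and most pou3f2 lines fall, and the ranges of the sides overlap for both genes.

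The other members with the smallest p did not pass the stricter cutoff. An AKR-like gene of the TALE class (LOC105918135) had medians of 39.5 CPM intact and 42.3 CPM lesioned and a log2 fold change of 0.09 (SE 0.03, adjusted p = 0.273 by edgeR), with higher values in the lesioned hemisphere in 9 of 10 fish. A ZHX1-like gene (LOC105915859) was higher in 7 of 10 fish, by 0.12 on the log2 scale (edgeR adjusted p = 0.299). An MSH-D-like gene (LOC105919434), a relative of the msx genes, had a log2 fold change of -0.35 (edgeR adjusted p = 0.329), with values of 0.92 to 3.15 CPM that rest on few counts. zhx2 and a Pax-7-like gene of the tectum (LOC105921808), the remaining members past the permissive cutoff, had log2 fold changes of 0.09 and 0.33 (edgeR adjusted p = 0.333 and 0.330).

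By group, the hypothalamic members had log2 fold changes between -0.51 and 0.38, with 4 above 0 and 4 below, and none passed the cutoff of 0.1 or of 0.4 or had an unadjusted p under 0.05 (0 of 8) in edgeR. The largest of their SEs was 0.74, for bsx, so that a difference of that order in bsx was not detectable in these fish. The forebrain members lay between -0.60 and 0.43, with 7 of 9 below 0, and none passed either cutoff or had an unadjusted p under 0.05 (0 of 9). gsx1 had the highest of them, 0.43 (SE 0.26), and was higher in 8 of 10 fish. The midbrain members lay between -0.14 and 0.33, with otx2 past the stricter cutoff and otx2 and the Pax-7-like gene past the permissive one. Of the 5 POU members 4 were below 0. No hindbrain, thalamic, retinal, glial or cerebellar member passed a cutoff in edgeR, and 10 of the 14 broad members were above 0 with 3 past the permissive one.

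**Figure D5:**
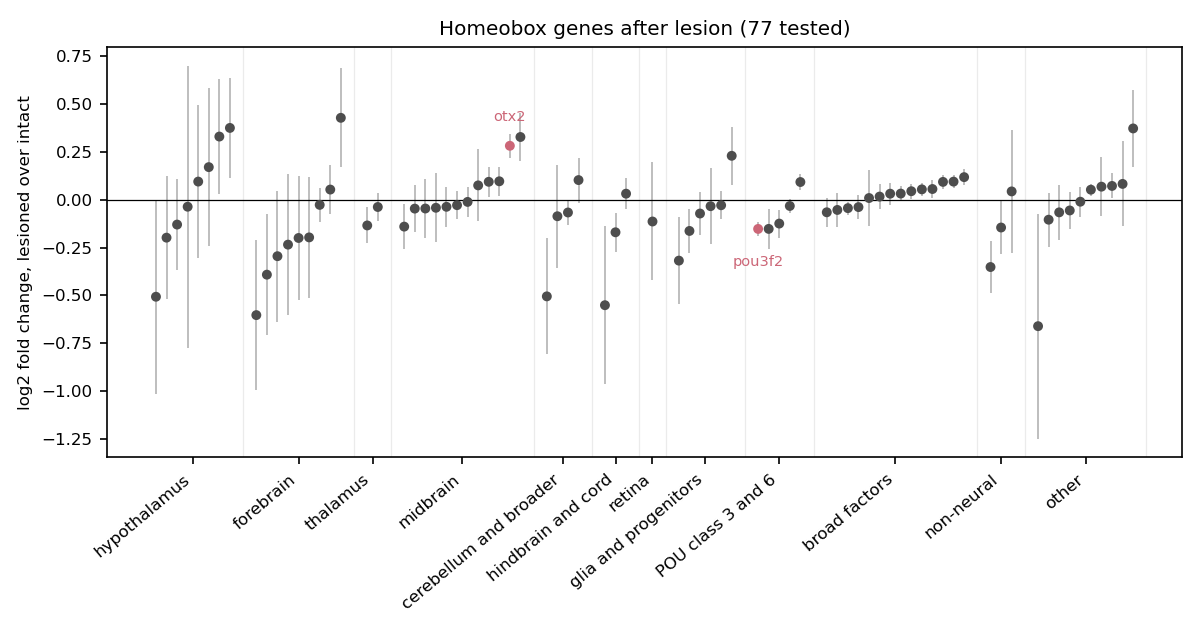
Log2 fold change of lesioned over intact (points) with its standard error (bars) for the 77 tested members, sorted within groups; the 2 members with an adjusted p of 0.1 or less are in red. The bars are long for hypothalamic and forebrain members and short for POU and broad members, and otx2 and pou3f2 stand out by short bars away from 0.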

How the data were processed

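Total RNA of 20 midbrain and diencephalon hemispheres was sequenced. The labels name the SMART-Seq v4 kit and the study's methods another; the processing notes list FastQC 0.11.5, cutadapt 1.11, STAR, HTSeq and DESeq2, and the study's methods name the Fundulus_heteroclitus-3.0.2 genome. Whether counting used strand is not stated, so overlapping genes on opposite strands cannot be told apart. The authors deposited raw counts per gene, which were analysed here. The same deposited table also holds the authors' DESeq2 comparison, with a mean signal, a log2 fold change and its error, a score (the Wald statistic) and p-values, and none of these columns was used. Of 16264 entries, 2585 tRNA entries (at most 0.00458% of counts) were left out. Reads are not independent molecules, so the limit of 3 counts set beside a count of 0 covers counting error only.

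Genes were filtered with filterByExpr (minimum count 10, minimum total 15) and tested in edgeR 4.0.16 (R 4.3.3) by the quasi-likelihood test with fish as a block, TMM scaling and Benjamini-Hochberg adjustment over all 10513 genes tested. Replicates are separate fish, and the hemispheres of a pair come from the same fish by the labels' subject; same-fish libraries also deviated together (correlations of 0.385 to 0.731, against -0.207 to 0.201 between fish). Spread was described on log2 CPM (prior count 2): the SD of fish means, the SD within fish after removing the mean side difference, and the intraclass correlation. The exact sign-flip test used all 1024 patterns. Named were the members called or with the smallest p, the 3 highest in CPM and the 1 with the largest SD between fish in each group, and the 3 highest and lowest intraclass correlations; others were named after their values were seen, and some items are not reported here. The members, groups and marker lists were chosen with earlier results of these data known. RefSeq (149 of 151 members matched by gene ID) gave only gene order, since its assembly is not the authors'. The code was tested on simulated data. Alternatives were no block, other scalings, other filters, DESeq2 1.42.0, another prior count and leaving out fish. In 6 cases members share a description (17 members), and their reads may be divided between copies. Sequences are not shown.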

Additional observations from a re-analysis of the deposited data

Results flagged for a closer look

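In 71 sets of 10 values (the hemisphere ratios of the named members over fish, and the group levels on each side), 6 held a fish that lay far from the other 9 by Dixon's criterion, where about 1 in 20 sets, or 3.55, would do so by chance. The log2 ratio of lesioned over intact for arx was -4.38 in fish 2, against -1.42 to 0.99 in the others, and that of hoxa2 was -3.07 in fish 5, against -0.84 to 1.48. A Mohawk-like gene (LOC105919942) had a ratio of 2.06 in fish 2, against -1.28 to 0.38, and an unc-4 homolog (LOC105939442) one of -0.52 in fish 5, against -0.10 to 0.36. Among the lesioned libraries, fish 2 had a forebrain level of -1.46, against -0.58 to 0.34, and a level of -1.31 for the cerebellar and broader members, against -0.24 to 0.27. The flags fell in fish 2 in 4 cases and in fish 5 in 2. The sets share libraries, and group levels include named members, as the forebrain level includes arx. The flags are therefore not independent, and the number by chance is only a rough guide.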

How the results depend on the processing

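At these depths 74 of the 151 members, 68 of them with a count, did not pass the filter. Without the replicate block edgeR called 0 members higher and 0 lower at an adjusted p of 0.1 (2 had an unadjusted p under 0.05), and 1 higher and 0 lower at 0.4, with an adjusted p of 0.345 for otx2 and 0.801 for pou3f2. DESeq2 called otx2 (adjusted p = 0.00127) but 0 lower at 0.1 (pou3f2, 0.354), and 1 higher and 1 lower at 0.4. Without the filter on low counts 0 were lower at 0.1 (pou3f2, 0.105). Without fish 2 and fish 3, an alternative chosen after seeing the data, 0 were lower at 0.1 and 5 at 0.4. Leaving out 1 fish at a time, 0 to 1 were higher and 0 to 1 lower at 0.1, and 1 to 8 higher and 1 to 7 lower at 0.4, with the upper ends of 8 and 7 both without fish 3; how otx2 and pou3f2 fared is given in the report. Over all 19 settings the adjusted p lay between 0.00127 and 0.345 for otx2, past 0.1 in 15, and between 0.0571 and 0.801 for pou3f2, past 0.1 in 8. Neither changed sign, and none of the other 45 named members tested passed 0.1 in any setting. The cause of the lost calls was not tested.

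For the spread, a prior count of 0.5 gave a median within-fish SD of 0.265 over the members. Without fish 2 and fish 3 the median SD between fish means was 0.231 over the members. It was 0.428 for hypothalamic members, with 0.792 within fish and an intraclass correlation of -0.408, and 0.246 for forebrain members, with 0.528 within fish. Leaving out 1 fish at a time moved the hypothalamic SD between fish means from 0.423, without fish 3, to 0.782, and the within-fish SD from 0.897 to 1.12. The lowest hypothalamic and forebrain levels, and the other spread values, moved by less than their own error with total counts in place of TMM.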
